A study of Mus musculus with 6 samples.

Results

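The genes described here are 8 genes that mark podocytes: Nphs1, Podxl, Synpo, Wt1, Cdkn1c, Tcf21, Ptpro and Magi2. They were chosen by their gene symbols, each matched 1 row among the 55401 genes of the deposited tables, and all 8 were among the 17194 genes that passed the filter on low counts. Poly(A) RNA of kidney tissue had been sequenced in 6 libraries labelled as biological replicates: 3 of Cdo1KKO/Sed mice, of genotype KO, and 3 of WT/Sed mice, of genotype WT. All mice of both groups had received streptozotocin, a beta cell toxin, to give them type 1 diabetes, so that no library comes from a kidney without diabetes. Sed is not spelled out in the labels, which also give no age, sex, strain, litter or batch, and no Cre line or promoter behind the genotype. The study set the groups side by side to learn which signalling routes in the kidney respond to tubular Cdo1, the gene of cysteine dioxygenase.

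Podocytes are the epithelial cells that wrap the capillaries of the glomerulus, the filter at the head of each nephron. Their foot processes interlock, and the gaps between them are bridged by the slit diaphragm, a junction built around nephrin. Podocytes hardly divide in the adult, so their loss is hard to repair, and damage to them lets protein into the urine, as in diabetic nephropathy. The 8 genes cover the slit diaphragm (Nphs1, Magi2), the apical surface of the foot processes (Podxl, Ptpro), their actin skeleton (Synpo), the transcription factors of the cell (Wt1, Tcf21) and its exit from the cell cycle (Cdkn1c).

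Libraries held 30711895 to 43081847 counts in Cdo1KKO/Sed and 28145261 to 43872779 in WT/Sed. Levels are given as CPM, counts scaled to a common library size with TMM factors (a trimmed mean that offsets differences in RNA composition), and as the authors' TPM, which also divides by gene length. Each log2 fold change sets Cdo1KKO/Sed over WT/Sed and is followed by its approximate SE. The words rose and fell are kept for genes with an adjusted p (Benjamini-Hochberg, all genes tested) under 0.05 in edgeR's quasi-likelihood test. Cdo1 stood at 110.1 ± 7.94 CPM in Cdo1KKO/Sed and 184 ± 5.79 CPM in WT/Sed (SD, n = 3 each), without overlap. The WT/Sed libraries were less alike than those of Cdo1KKO/Sed, and replicates 2 and 3 of WT/Sed stood apart from each other, which reaches most of the 8 genes. Fold changes of the members that these libraries move, and some of the list calls that they change, are therefore also given without them. The p-values measure the spread between these libraries.

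Of the 8 genes, Wt1 and Cdkn1c fell in Cdo1KKO/Sed, Tcf21 rose, and Nphs1, Podxl, Synpo, Ptpro and Magi2 did not pass the test. Of all genes tested, 37.4% passed it, 18.9% as higher and 18.5% as lower, so that 3 of 8 is close to the share of all genes. The CPM ranges of the groups did not overlap for the same 3 of 8 genes, against 50.3% of all genes tested. The median log2 fold change of the 8 genes was -0.11, against 0.01 for all genes tested. In bulk tissue, fewer podocytes and less RNA per podocyte cannot be told apart.

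**Figure D1:**
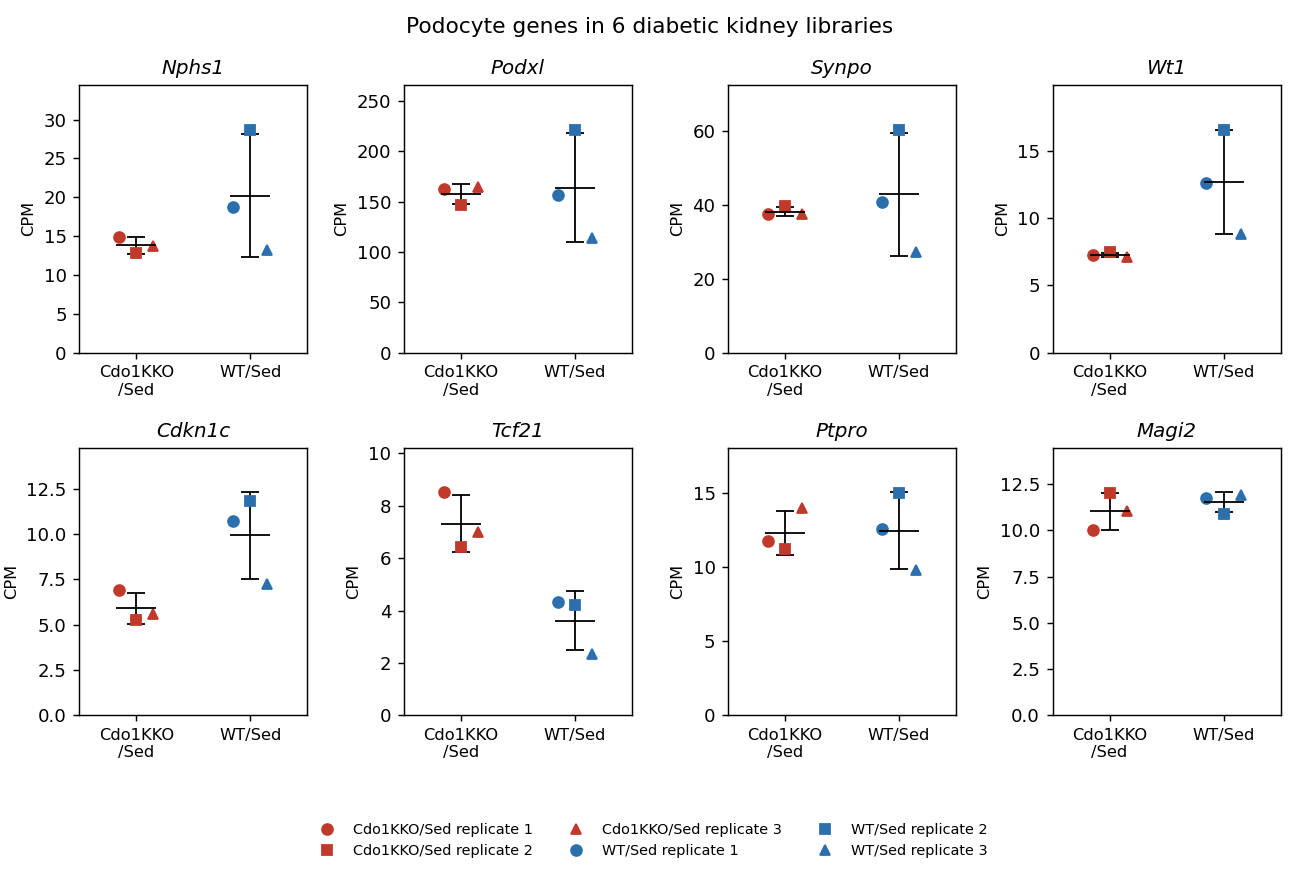
CPM of each of the 8 podocyte genes in the 6 libraries, with 1 point per library and the mean ± SD of each group in black; each panel has its own scale from 0. The groups are apart for Wt1, Cdkn1c and Tcf21, and for 6 of the 8 genes WT/Sed replicate 2 is the highest and replicate 3 the lowest WT/Sed library.

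Both genes that fell act in the nucleus. Wt1, a zinc finger transcription factor that podocytes need to form and to persist, had 7.23, 7.45 and 7.11 CPM in Cdo1KKO/Sed, against 12.6, 16.6 and 8.83 CPM in WT/Sed. The 3 Cdo1KKO/Sed libraries lay close together, all below the lowest WT/Sed library. The level in Cdo1KKO/Sed was 57.4% of that in WT/Sed, a log2 fold change of -0.79 ± 0.20 (adjusted p = 0.0131 by edgeR). Leaving out WT/Sed replicate 2 gave -0.56 (adjusted p = 0.00397) and leaving out WT/Sed replicate 3 gave -1.001 (adjusted p = 1.01e-05), both by edgeR. The call ended without Cdo1KKO/Sed replicate 1 or replicate 3 (edgeR adjusted p = 0.0512 and 0.0566), with values of -0.79 and -0.78, and with the deposited TPM values. In GRCm38, GENCODE M21 places Wt1 at 105126529 to 105173616 of chromosome 2 (plus strand), under an older version of the deposited identifier. In that annotation the antisense gene Wt1os does not overlap Wt1. Overlap under the version of the deposited identifier was not examined. Wt1os, named after its values were seen, fell as well, with 0.813 ± 0.218 CPM in Cdo1KKO/Sed and 1.90 ± 0.343 CPM in WT/Sed (SD, n = 3 each; log2 fold change -1.22 ± 0.29, edgeR adjusted p = 0.00730), and its call ended under 1 of 18 alternatives, the TPM values on all genes.

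Cdkn1c encodes p57, an inhibitor of cyclin-dependent kinases found in quiescent podocytes, and is expressed from the maternal allele. It had 6.89, 5.28 and 5.58 CPM in Cdo1KKO/Sed, against 10.7, 11.8 and 7.25 CPM in WT/Sed. The groups did not overlap in CPM, though the highest Cdo1KKO/Sed library came near the lowest WT/Sed library. In TPM they did overlap, with 9.20 in Cdo1KKO/Sed replicate 1 and 8.18 in WT/Sed replicate 3. The level was 59.6% of that in WT/Sed (log2 fold change -0.74 ± 0.18, adjusted p = 0.00942 by edgeR). Without WT/Sed replicate 2 it was -0.60 (edgeR adjusted p = 0.00854) and without WT/Sed replicate 3 it was -0.94 (5.19e-05). The call ended without WT/Sed replicate 1 (edgeR adjusted p = 0.0511), without Cdo1KKO/Sed replicate 2 (0.0503) or replicate 3 (0.0511), and with the TPM values. Cdkn1c occupies 143458339 to 143461050 of chromosome 7 (minus strand), where the antisense gene Gm44732 shares 625 exonic bases with it; Gm44732 had 0 counts in all 6 libraries.

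Tcf21 went the other way. This basic helix-loop-helix factor, which in kidney is also made by stromal cells, had 8.51, 6.44 and 6.998 CPM in Cdo1KKO/Sed, against 4.32, 4.20 and 2.34 CPM in WT/Sed. Every Cdo1KKO/Sed library was above every WT/Sed library. The level was 202% of that in WT/Sed (log2 fold change 1.02 ± 0.22, adjusted p = 0.00476 by edgeR). Its rise passed the test under all 18 alternatives, with fold changes of 0.77 (without WT/Sed replicate 3) to 1.29 on the log2 scale; without WT/Sed replicate 2 it was 1.14. For Wt1, Cdkn1c and Tcf21 the CPM gave p = 0.1 by an exact permutation test (2-sided), the smallest that 3 libraries against 3 allow. Tcf21 occupies 22817281 to 22820174 of chromosome 10 (minus strand). The antisense gene Gm10824 spans it without sharing exonic bases, and held 0 to 4 counts per library. Tcf21 moved in the same direction as some markers of stromal cells. Of 8 mesangial markers, Pdgfrb and Des rose (1.11 ± 0.22 and 0.96 ± 0.29). Ren1 and Agtr1a fell (-1.27 ± 0.25 and -0.44 ± 0.09), and 4 did not pass, in a fit where 37.4% of all genes tested passed. Of these calls, Pdgfrb held under all 18 alternatives, Ren1 ended with the replicate block, Des without Cdo1KKO/Sed replicate 1 or 2, and Agtr1a with the TPM values. Without WT/Sed replicate 2, 3 mesangial markers rose and 2 fell, in a fit where 41.1% of all genes tested passed. The summed level of this list was 91.3 to 92.5 CPM in Cdo1KKO/Sed and 103 to 144 CPM in WT/Sed, and no marker of it was at 0. Ren1 and Agtr1a, which are not particular to mesangial cells, had the highest levels of the list and weigh most in this sum. They stood at 18.1 and 31.7 CPM in Cdo1KKO/Sed and at 43.9 and 43.2 CPM in WT/Sed. The sum is therefore no measure of mesangial cells, and the part of this list in the rise of Tcf21 was not tested.

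Promoter windows of RefSeq (GRCm38.p6, 250 bases before to 50 after a start) were given for 4 of the 8 genes: Nphs1, Magi2, Ptpro and Tcf21. They were searched on both strands for GNGTGGGNG (a zinc finger motif of the WT1 and EGR type, where N is any base), for the E-boxes CAGCTG and CATCTG, and for TAATTA (a homeodomain motif). The first is held by 14.3% of 32851 windows, the others by 16.3%, 17.2% and 5.29%. Nphs1 held GNGTGGGNG once, on its own strand, and 1 of the 2 windows of Magi2 held it once, on the opposite strand. That Magi2 window also held CAGCTG, a palindrome, and the other one TAATTA, another palindrome. The windows of Ptpro and Tcf21 held none of the 4 motifs, which says only that these letters are not in them. Shown first, on the sense strand, is the stretch of Nphs1 around its match, in capitals, at chr7:30459821-30459849. This stretch lies inside Nphs1, after the start of the gene in GENCODE M21. Shown next, also on the sense strand, is the sequence before the annotated start of Tcf21, the 1 gene that rose. It lies at chr10:22820175-22820393 (minus strand) and has nothing in capitals because nothing matched.
Nphs1: gagtacctgtGAGTGGGTGagagggaggt
Tcf21: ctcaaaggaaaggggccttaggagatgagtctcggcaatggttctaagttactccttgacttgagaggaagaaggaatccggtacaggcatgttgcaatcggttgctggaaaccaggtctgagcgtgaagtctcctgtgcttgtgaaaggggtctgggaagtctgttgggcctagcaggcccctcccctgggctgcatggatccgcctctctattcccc

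Of the slit diaphragm genes, Nphs1 encodes nephrin, whose extracellular domains bridge neighbouring foot processes. It had 14.9, 12.8 and 13.7 CPM in Cdo1KKO/Sed, against 18.8, 28.7 and 13.2 CPM in WT/Sed. The groups overlapped only through WT/Sed replicate 3. The log2 fold change was -0.54 ± 0.28, with a 95% interval of -1.24 to 0.16 (adjusted p = 0.197 by edgeR). Without WT/Sed replicate 3 it passed the test at -0.78 (edgeR adjusted p = 0.00332), and without WT/Sed replicate 2 its value was -0.21 (0.2301). Nphs1 occupies 30458315 to 30487223 of chromosome 7 (plus strand), and shares 597 exonic bases with the antisense gene Nphs1os, which held 0 to 2 counts per library. Magi2 encodes a scaffold with PDZ domains that holds nephrin to the cytoskeleton. It had 10.04, 12.02 and 11.03 CPM in Cdo1KKO/Sed and 11.7, 10.9 and 11.9 CPM in WT/Sed, so the groups overlapped throughout. Its fold change of -0.06 ± 0.10 had the narrowest interval of the 8 genes, -0.29 to 0.16 (edgeR adjusted p = 0.674). Magi2 occupies 19227036 to 20704792 of chromosome 5 (plus strand).

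The surface and skeleton genes overlapped between the groups. Podxl encodes podocalyxin, a negatively charged glycoprotein that keeps foot processes apart and is also made by endothelium. Its level was 162, 146 and 164 CPM in Cdo1KKO/Sed and 156, 221 and 114 CPM in WT/Sed, so the Cdo1KKO/Sed libraries lay inside the range of WT/Sed. Synpo encodes synaptopodin, which organises the actin of foot processes, and showed the same layout with 37.6, 39.6 and 37.6 CPM in Cdo1KKO/Sed and 41.0, 60.5 and 27.2 CPM in WT/Sed. Ptpro, a receptor tyrosine phosphatase of the apical membrane, had 11.7, 11.2 and 14.0 CPM in Cdo1KKO/Sed and 12.6, 14.96 and 9.80 CPM in WT/Sed. The fold changes were -0.05 ± 0.26 for Podxl (95% interval -0.73 to 0.62), -0.16 ± 0.30 for Synpo (-0.94 to 0.63) and -0.01 ± 0.15 for Ptpro (-0.34 to 0.33), with edgeR adjusted p values of 0.896, 0.739 and 0.974. The interval of Synpo holds the fold change seen for Wt1, and those of Podxl and Ptpro do not. Without WT/Sed replicate 2, the values of Podxl, Synpo and Ptpro turned positive (0.22, 0.17 and 0.14), and none of them passed the test. Podxl (31519488 to 31563981, minus strand) and Ptpro (137252319 to 137463233, plus strand) both lie on chromosome 6, and Synpo lies on chromosome 18.

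**Figure D2:**
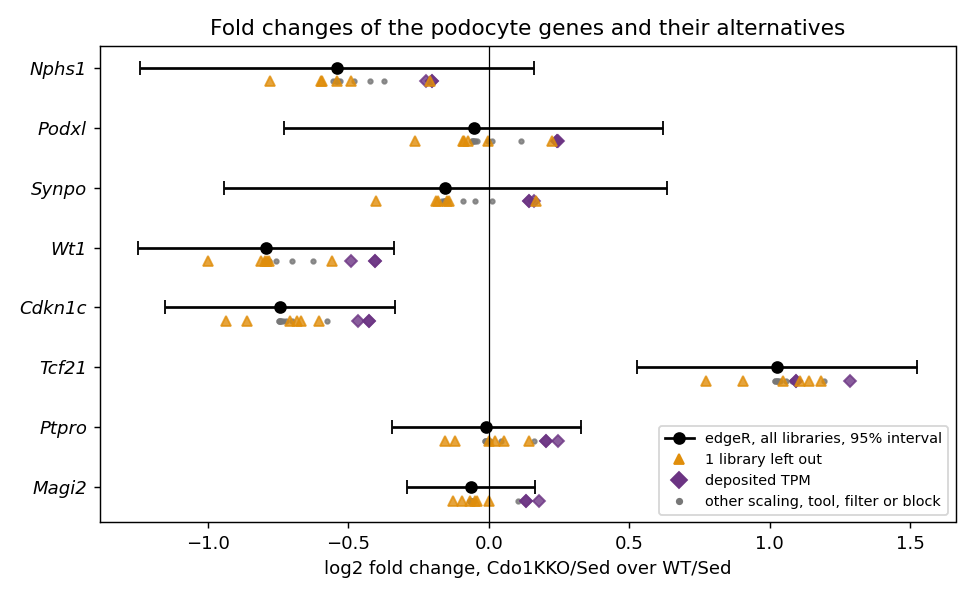
Log2 fold change (Cdo1KKO/Sed over WT/Sed) of each podocyte gene in the edgeR fit of all 6 libraries, with its 95% interval (black), and under the 18 alternatives (triangles for 1 library left out, diamonds for the deposited TPM, dots for the others). All values of Wt1, Cdkn1c and Nphs1 are below 0, those of Tcf21 run from 0.77 to 1.29, and those of Podxl, Synpo, Ptpro and Magi2 lie on both sides of 0.

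Per length, podocalyxin was by far the most abundant of the 8 transcripts. Podxl had 77.7 ± 5.79 TPM in Cdo1KKO/Sed and 67.6 ± 21.5 TPM in WT/Sed (SD, n = 3 each), and the other 7 genes lay between 2.63 and 10.9 TPM in Cdo1KKO/Sed and between 2.31 and 11.03 TPM in WT/Sed. In Cdo1KKO/Sed the order of mean TPM was Podxl, Synpo, Tcf21, Cdkn1c, Nphs1, Ptpro, Wt1 and Magi2. Of its neighbours, the ranges overlapped for Tcf21 with Cdkn1c and for Nphs1 with Ptpro, and for no others. In WT/Sed the order was Podxl, Cdkn1c, Synpo, Nphs1, Wt1, Ptpro, Tcf21 and Magi2, and every pair of neighbours after Podxl overlapped. Tcf21, with 8.44 ± 1.30 TPM in Cdo1KKO/Sed and 3.49 ± 1.04 TPM in WT/Sed, was thus the third in Cdo1KKO/Sed and the seventh in WT/Sed. Wt1 had 3.17 ± 0.0387 TPM in Cdo1KKO/Sed and 4.63 ± 1.36 TPM in WT/Sed, and on this scale its groups did not overlap either, the highest Cdo1KKO/Sed library having 3.21 TPM and the lowest WT/Sed library 3.28 TPM. The groups of Cdkn1c did overlap on this scale, at up to 9.20 TPM in Cdo1KKO/Sed and from 8.18 TPM in WT/Sed.

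Most of the 8 genes varied more among WT/Sed than among Cdo1KKO/Sed libraries. The coefficient of variation of the CPM was 2.36% in Cdo1KKO/Sed and 30.6% in WT/Sed for Wt1, and 3.10% in Cdo1KKO/Sed and 39.0% in WT/Sed for Synpo. It was larger in WT/Sed for 7 of the 8 genes, Magi2 being the exception with 8.96% in Cdo1KKO/Sed and 4.69% in WT/Sed. Over all genes tested, the median was 6.89% in Cdo1KKO/Sed and 10.96% in WT/Sed, and 67.6% of genes varied more in WT/Sed. WT/Sed replicate 2 was the highest and replicate 3 the lowest WT/Sed library for Nphs1, Podxl, Synpo, Wt1, Cdkn1c and Ptpro, an order held by 27.4% of all genes tested. In replicate 2 these 6 genes lay 0.28 to 0.58 above their WT/Sed mean on the log2 scale, and in replicate 3 they lay 0.32 to 0.58 below it. Summed over the 8 genes, the level was 259, 241 and 259.9 CPM in Cdo1KKO/Sed, and 268, 369 and 194 CPM in WT/Sed. The same order was held by 7 of 7 macrophage markers, 7 of 8 markers of glomerular endothelium, 6 of 8 mesangial markers and 22 of 34 other podocyte and filter genes, and by 3 of 6 parietal epithelial, 4 of 10 proximal tubule and 3 of 6 collecting duct markers. It was thus found in lists within and outside the glomerulus. The endothelial markers summed to 209 to 227 CPM in Cdo1KKO/Sed and 75.6 to 249 CPM in WT/Sed, and the part of any cell type in this order was not tested.

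**Figure D3:**
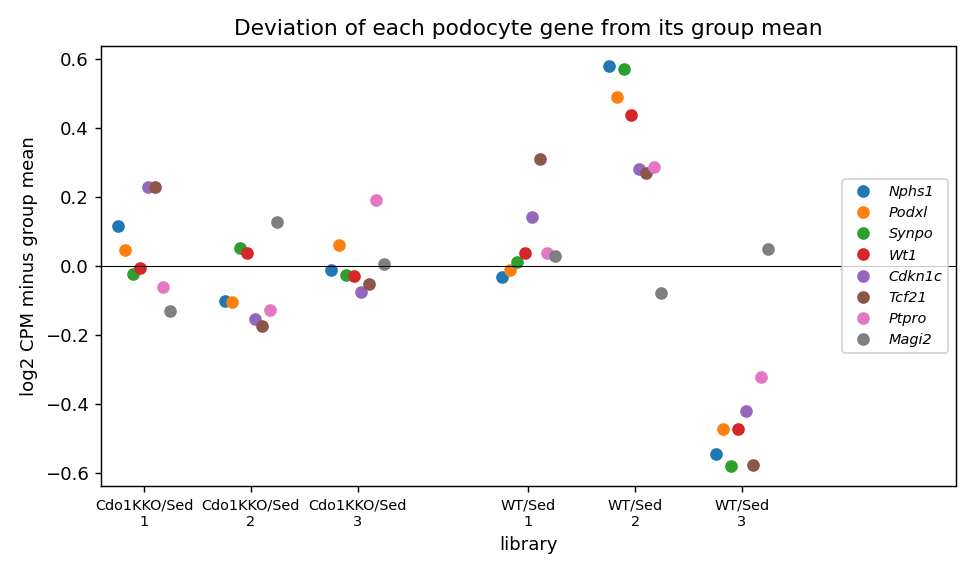
Deviation of the log2 CPM of each podocyte gene from the mean of its group, by library; each gene has its own colour. In the Cdo1KKO/Sed libraries the points lie between -0.17 and 0.23, and in WT/Sed replicates 2 and 3 all genes but Magi2 lie together above and below 0.

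Among genes outside all lists used here, those whose deviations from the group means followed the mean deviation of the 8 genes most closely over the 6 libraries were Stom, Insrr, Rasgrp3, Flt1 and Nrp2, with Pearson correlations of 0.9993 (Nrp2) to 0.9996 (Stom). With 6 points, of which WT/Sed replicates 2 and 3 lie far out, such values are a description of these libraries. Flt1, a receptor for VEGF on endothelium, had 27.0, 43.3 and 12.2 CPM in WT/Sed. Of the 5, only Nrp2, another receptor that binds VEGF, passed the test of the groups (log2 fold change 1.11 ± 0.27, edgeR adjusted p = 0.0130). Within the 8 genes, the correlation of a gene with the mean of the other 7 was 0.825 to 0.977 for 7 of them and -0.56 for Magi2.

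Since most of the 8 genes shared the spread of the WT/Sed libraries, each was also set against Synpo in the same library, a choice made after the data were seen. Against Synpo, the coefficient of variation in WT/Sed was smaller than that of the CPM for 6 of 7 genes, with 2.74% against 38.9% for Nphs1. Wt1 came to 0.192, 0.188 and 0.189 of the level of Synpo in Cdo1KKO/Sed, against 0.307, 0.274 and 0.325 in WT/Sed. Nphs1, which overlapped in CPM, came to 0.397, 0.324 and 0.364 in Cdo1KKO/Sed, against 0.458, 0.475 and 0.484 in WT/Sed, so that every Cdo1KKO/Sed library was lower. The ratio of Cdkn1c was 0.155 ± 0.0256 in Cdo1KKO/Sed and 0.241 ± 0.0398 in WT/Sed, and that of Tcf21 was 0.192 ± 0.0323 in Cdo1KKO/Sed and 0.0869 ± 0.0180 in WT/Sed (SD, n = 3 each), both without overlap. Of 7 genes, 3 were lower and 1 was higher without overlap. The ratio to Synpo did not overlap, in either direction, for 18.7% of all genes tested, but this share is no yardstick for the 7. Dividing by Synpo adds its spread to genes that do not share it, as for Magi2, whose coefficient of variation in WT/Sed was 43.0% as a ratio and 4.69% in CPM, so nothing is read from the contrast of the shares. The differences in log2 ratio were -0.67 for Wt1, -0.64 for Cdkn1c, -0.39 for Nphs1 and 1.15 for Tcf21. For each of these 4 the exact 2-sided permutation p was 0.1, the smallest possible (0.175 adjusted over 7 genes). Podxl and Ptpro overlapped in their ratio to Synpo (log2 differences of 0.08 and 0.09). With Podxl in place of Synpo, the same 4 genes stood apart (-0.75, -0.72, -0.48 and 1.07 in the same order; 20.3% of all genes did, with the same limit), and Synpo overlapped. Such a ratio speaks of members relative to each other, and Podxl is also made outside podocytes.

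**Figure D4:**
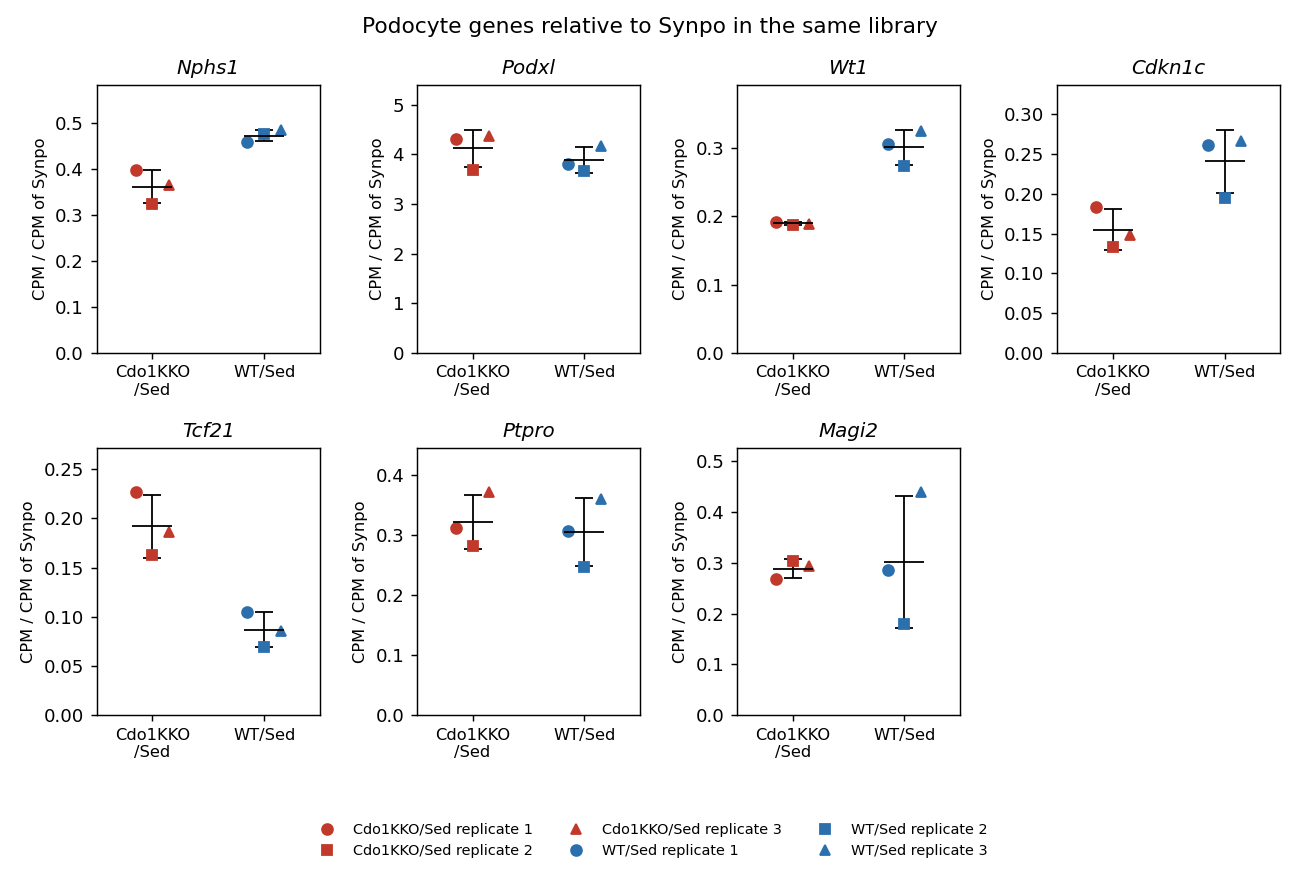
CPM of each podocyte gene divided by the CPM of Synpo in the same library, with 1 point per library and the mean ± SD of each group; each panel has its own scale from 0. Wt1, Cdkn1c and Nphs1 are lower and Tcf21 is higher in all 3 Cdo1KKO/Sed libraries, while Podxl, Ptpro and Magi2 overlap.

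The other genes of the podocyte and the filtration barrier were covered by 5 lists of 36 genes, of which 34 were tested. Of these, 6 rose, 7 fell and 21 did not pass, with a median log2 fold change of -0.000829, and 17 did not overlap. Against the 37.4% of all genes that passed and the 50.3% that did not overlap, these counts are at the background, so the genes named below are a description. Without WT/Sed replicate 2, 12 rose and 7 fell, in a fit where 41.1% of all genes tested passed. Without WT/Sed replicate 3, 6 rose and 9 fell, in a fit where 40.3% of all genes tested passed. Kirrel2 and Trpc6, a slit diaphragm protein and a cation channel, had too few counts to be tested. Many of these genes are also active in tubule cells, which make up most of the tissue.

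Among the transcription factors, Foxc1 fell and Dach1 rose. Foxc1, a forkhead factor, fell by 0.66 on the log2 scale. Dach1 stood at 27.7 ± 0.749 CPM in Cdo1KKO/Sed and 18.7 ± 0.643 CPM in WT/Sed. Lmx1b, a LIM homeodomain factor of podocytes, had 1.38 ± 0.369 CPM in Cdo1KKO/Sed and 1.86 ± 0.652 CPM in WT/Sed and did not pass. The calls for Foxc1 and Dach1 held under all 18 alternatives.

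Among genes of the skeleton, Ddn fell and Ezr rose. Ddn encodes dendrin, a protein of the slit diaphragm complex, and had 5.69 ± 0.0232 CPM in Cdo1KKO/Sed and 9.65 ± 1.99 CPM in WT/Sed (log2 fold change -0.76 ± 0.15, edgeR adjusted p = 0.00273). Its fall was lost under 1 of 18 alternatives, the TPM values on all genes. Ezr encodes ezrin, which links membrane proteins such as podocalyxin to actin and is abundant in the brush border of the tubule; it rose by 0.79 ± 0.05. Clic5 and Rhpn1 did not pass (0.14 ± 0.08 and -0.22 ± 0.13), but Clic5 did without WT/Sed replicate 2 (0.22, edgeR adjusted p = 0.00463) and Rhpn1 without WT/Sed replicate 3 (-0.34, 0.0179). Of the slit diaphragm list, the adaptor Cd2ap and the atypical cadherin Fat1 rose by 0.41 ± 0.05 and 0.23 ± 0.07, Fat1 losing its call without WT/Sed replicate 1 or Cdo1KKO/Sed replicate 1 or 3. The phospholipase Plce1, with 0.21 ± 0.15, did not pass.

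The glomerular basement membrane, which podocytes and endothelium build between them, went both ways. The collagen IV chains Col4a3, Col4a4 and Col4a5, which assemble together, fell by 0.74, 0.59 and 0.24 on the log2 scale, and the laminin chain Lama5 rose by 0.71 ± 0.11. Col4a4 stood at 291 ± 4.50 CPM in Cdo1KKO/Sed and 437 ± 11.5 CPM in WT/Sed. The coefficient of variation of Col4a3 and Col4a4 in WT/Sed was 2.94% and 2.63%. Col4a5 lost its call under 6 of 18 alternatives, library size only and the TPM values among them, and its value reached 0.00513 under 1 of them. The integrin Itga3, named after its values were seen to complete the count, rose by 0.24 ± 0.08 and lost its call under 8 of 18 alternatives, among them the fit without WT/Sed replicate 3 (0.16). Of the secreted and surface list, Vegfa, the factor by which podocytes maintain the glomerular endothelium and which tubules also make, fell without overlap, with 258 ± 4.35 CPM in Cdo1KKO/Sed and 370 ± 27.2 CPM in WT/Sed (log2 fold change -0.52 ± 0.06, edgeR adjusted p = 4.65e-05). Pla2r1, a surface receptor whose source cells in these kidneys were not tested, had 6.91 ± 0.411 CPM in Cdo1KKO/Sed and 3.07 ± 1.92 CPM in WT/Sed. It did not pass (edgeR adjusted p = 0.0687), and neither did Bmp7 (-0.16 ± 0.06) or Efnb1 (0.11 ± 0.11). Pla2r1 passed as higher without WT/Sed replicate 2 (1.74, edgeR adjusted p = 0.000179) and without WT/Sed replicate 3 (0.82, 0.00389). Efnb1 passed without replicate 2 (0.25, edgeR adjusted p = 0.0326) and Bmp7, as lower, without replicate 3 (-0.20, 0.0355).

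Among neighbouring cells of the glomerulus, none of 8 endothelial markers passed the test. The groups did not overlap for 1 of the 8, Kdr, against 50.3% of all genes tested. Kdr had 53.3 ± 1.14 CPM in Cdo1KKO/Sed and 27.0 ± 17.1 CPM in WT/Sed (log2 fold change 1.00 ± 0.57). Pecam1, Tek and Emcn had fold changes of 0.68 ± 0.47, 0.66 ± 0.50 and 0.62 ± 0.51. Ehd3, Plat, Gata5 and Sost, named after their values were seen, had -0.09 ± 0.45, -0.08 ± 0.35, 0.30 ± 0.57 and 0.21 ± 0.43. Gata5 and Sost were near the floor, with 6 to 18 and 14 to 36 counts per library, so their values say little. No endothelial marker passed without WT/Sed replicate 2 or replicate 3 either. Kdr, Pecam1, Tek and Emcn had 1.52, 1.16, 1.16 and 1.13 without replicate 2, and 0.59, 0.33, 0.28 and 0.24 without replicate 3. Ehd3 and Plat had 0.41 and 0.28 without replicate 2, and -0.42 and -0.36 without replicate 3. Of 6 markers of the parietal epithelium, which lines Bowman's capsule and also makes Wt1, 3 rose and 2 fell: Akap12, Cd44 and Cldn1 by 2.85 ± 0.19, 2.66 ± 0.22 and 1.03 ± 0.08, while Lad1 fell by 0.30 and Pax2, named after its values were seen, fell by 0.31, calls lost under 4 and 5 of 18 alternatives. Their summed level was 267 to 276 CPM in Cdo1KKO/Sed and 211 to 222 CPM in WT/Sed, with no marker at 0. Lad1 had the highest level of this list, with 129 CPM in Cdo1KKO/Sed and 159 CPM in WT/Sed. Akap12 had 77.0 CPM in Cdo1KKO/Sed and 10.8 CPM in WT/Sed. Since Lad1 fell and Akap12 rose, the sum is no measure of parietal cells. The source cells of these markers and their part in the level of Wt1 were not tested. Of all genes tested, 37.4% passed the test. Outside the glomerulus, all 10 proximal tubule markers fell, with a median log2 fold change of -0.74, among them Slc27a2 (-0.91 ± 0.05), Aqp1 (-1.25 ± 0.07), Hnf4a (-0.76 ± 0.06) and Slc13a3 (-0.69 ± 0.06). The calls of Lrp2 and Cubn, named after their values were seen, ended with the TPM values, and the other calls held under all 18 alternatives. The summed level of the 10 markers was 9113 to 9943 CPM in Cdo1KKO/Sed and 16432 to 16775 CPM in WT/Sed. Slc27a2 and Slc34a1, the latter also named after its values were seen, weigh most in this sum. They stood at 3298 and 2216 CPM in Cdo1KKO/Sed and at 6179 and 4221 CPM in WT/Sed. Of 6 markers of collecting duct principal cells, the water channels Aqp2 and Aqp3 fell (-1.45 ± 0.06 and -1.08 ± 0.08), and 4 did not pass, among them Scnn1b (0.15 ± 0.09) and Avpr2 (0.56 ± 0.55). Scnn1b passed without WT/Sed replicate 2 (0.25, edgeR adjusted p = 0.0136). Avpr2 was near the floor, with 4 to 17 counts per library. Of 7 macrophage markers, 5 rose, among them Cd68 (3.16 ± 0.29), Adgre1 (2.09 ± 0.25) and Lyz2 (1.73 ± 0.29), and Csf1r fell by 0.33, a call lost under 5 of 18 alternatives. C1qb and Mrc1, named after their values were seen, rose as well, each call being lost under 4 of 18 alternatives. The summed level of the 7 markers was 108 to 115 CPM in Cdo1KKO/Sed and 57.0 to 89.1 CPM in WT/Sed, and none was at 0. Csf1r had the highest level of this list, with 36.6 CPM in Cdo1KKO/Sed and 46.3 CPM in WT/Sed. Lyz2 had 35.2 CPM in Cdo1KKO/Sed and 10.7 CPM in WT/Sed. Since Csf1r fell and Lyz2 rose, the sum is no measure of macrophages. Without WT/Sed replicate 2, 6 of the 7 rose, in a fit where 41.1% of all genes tested passed. The difference between these lists and the 8 genes was not tested.

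**Figure D5:**
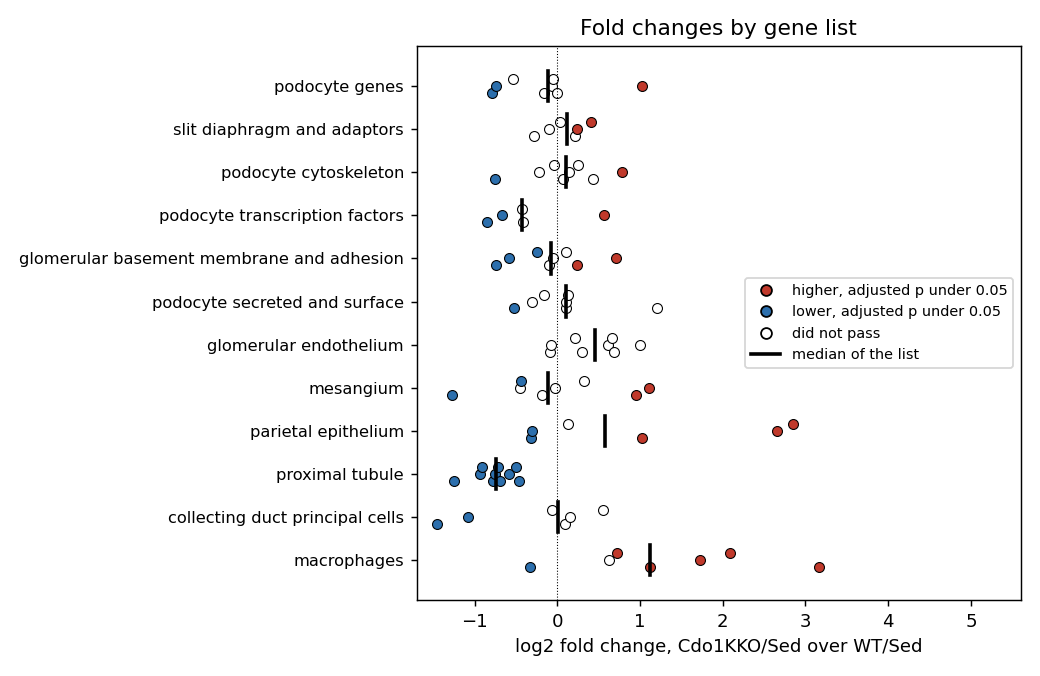
Log2 fold change (Cdo1KKO/Sed over WT/Sed) of every tested gene of the 12 lists, with 1 point per gene, filled where the edgeR adjusted p was under 0.05, and a bar at the median of each list. The podocyte genes lie on both sides of 0 with a median of -0.11, while all 10 proximal tubule markers lie below 0.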

How the data were processed

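Messenger RNA of 6 mouse kidneys was selected on oligo(dT) beads, and the VAHTS Universal V6 kit served for the libraries, per the labels' protocols. The submitters' processing notes name fastp 0.23.4 and the builds GRCm38 and mm10. Aligner, counter and strandedness: not given in the sources used here. Values deposited by the authors are read counts for each gene, not normalized, and TPM, which the authors scaled by gene length and library. Each value column was assigned by its library name.

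From the counts, edgeR 4.0.16 in R 4.3.3 gave the tests (filterByExpr, TMM, robust quasi-likelihood F test, genotype as the only term), with adjustment over all 17194 genes tested and a threshold of 0.05. The SE is the absolute log2 fold change divided by the square root of F, and 95% intervals use the total degrees of freedom of each gene in the fit (residual and prior). The pipeline was tested on simulated counts. Alternatives used other scalings, DESeq2 1.42.0, limma 3.58.1 (voom, and log2 of TPM plus 1 or 0.1), other filters, a replicate block and each library left out. Gene positions came from GENCODE M21. Likeness was measured on log2 CPM with 0.5 added, among tested genes with a symbol and a mean of at least 1 CPM. Library totals set the counting error, and the 3 libraries a group limit the tests. The members, the lists and the named genes (all members, up to 4 of each list by smallest p, and the 5 genes most like the members) were chosen with earlier results of these data known. Some genes that the naming rule selects are not reported here. Python 3.11.15 with matplotlib 3.10.9 drew the figures.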

Additional observations from a re-analysis of the deposited data

How the results depend on the processing

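Under each of the 18 alternatives, 1 of the 8 podocyte genes rose, and it was Tcf21. The number that fell was 2 with all libraries, ran from 0 to 3 with 1 library left out, and was 0 with log2(TPM + 1), log2(TPM + 0.1) and log2(TPM + 1) on all genes. With these TPM settings Wt1 had -0.40, -0.49 and -0.40 (limma adjusted p = 0.0865, 0.0866 and 0.174) and Cdkn1c had -0.43, -0.47 and -0.43 (0.0712, 0.0735 and 0.155). Over all genes the median was 0.19, 0.25 and 0.09 in these settings and 0.18 with library size only, against 0.01 with TMM. Signs turned for genes that never passed: with library size only, Podxl had 0.11, Synpo 0.0114, Ptpro 0.16 and Magi2 0.11; with log2(TPM + 1), with or without the filter, 0.24, 0.14, 0.20 and 0.13; with log2(TPM + 0.1), 0.25, 0.16, 0.24 and 0.18. Podxl (0.0113) and Ptpro (0.0447) turned with limma-voom, and Ptpro with a filter of 1 CPM (0.00304). With 1 library left out, values ran from -0.26 to 0.22 for Podxl, -0.40 to 0.17 for Synpo and -0.16 to 0.14 for Ptpro; the cause was not tested. Nphs1 ran from -0.78 to -0.21 and passed once.

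Over all genes, 3250 rose and 3185 fell; 5513 and 1685 did with library size only, and 6784 and 1246, 6660 and 1224, and 5469 and 1010 with the TPM settings in the order above. In the other 11 lists 16 rose and 24 fell, and 10 of the 24 were the proximal tubule markers. Of all genes tested, 18.9% rose and 18.5% fell in the same fit. In these lists 30, 29 and 25 rose with the TPM settings, and 11 to 25 with 1 library left out. The lists were chosen with earlier results of these data known, so nothing is read from these counts. Same-numbered libraries did not deviate together (correlations of -0.02, 0.02 and 0.02 over genes), and a replicate block gave 1 podocyte gene that rose and 2 that fell, with Ptpro at 0.000788. Over all genes 3117 rose and 3029 fell with the block.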
